A study of Homo sapiens with 4 samples.

Results

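Fibronectin and the integrins that bind it and other matrix proteins were followed through an RNA immunoprecipitation of LC3B in U2OS cells, an established human osteosarcoma line. The genes were 10 taken by symbol, FN1 and 9 integrin subunits (ITGA2, ITGA3, ITGA4, ITGA5, ITGA6, ITGAV, ITGB1, ITGB3 and ITGB5), out of 60676 genes in the deposited tables, and each symbol matched 1 gene. FN1 was chosen because its mRNA has been reported as a target of LC3, and the rule that lists the members uses no measured value. There were 4 libraries of polyadenylated RNA, prepared with a native nuclear RNA immunoprecipitation kit and an ultra-low-input cDNA kit: an immunoprecipitate (RIP) taken with an LC3B antibody, a control RIP taken with IgG, and an input without antibody beside each, here called the LC3B input and the IgG input. All came from unmodified U2OS cells in serum-containing medium with no treatment named. Each group held 1 library, so nothing here rests on replicates and p-values were not calculated. Intervals cover counting error only. They treat reads as independent molecules, which amplified reads without molecular identifiers are not, so they may be too narrow even for that error.

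Fibronectin is a secreted glycoprotein that cells assemble into fibrils outside the membrane, and integrins are the receptors that grip it. Each integrin is a heterodimer of an alpha and a beta subunit, and the alpha subunit largely sets which ligand is bound. Alpha5-beta1 (ITGA5, ITGB1) is the classical fibronectin receptor, and alphaV pairs with beta1, beta3 or beta5 to bind fibronectin or vitronectin through the arginine-glycine-aspartate motif. Alpha4-beta1 binds a separate, alternatively spliced stretch of fibronectin, whereas alpha3-beta1 and alpha6-beta1 are mainly laminin receptors and alpha2-beta1 is a collagen receptor. LC3B, a small relative of ubiquitin, is coupled to lipids of the autophagosome and also occurs in nuclei.

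Total counts ranged from 10000914 to 10886762 reads per library. Mitochondrial genes took 20.8% to 22.8% of the inputs but 0.774% to 1.76% of the RIPs, so levels are given as CPM, the count scaled to the library's total outside mitochondrial genes. These totals were 8404123 and 8542486 reads for the inputs and 9824400 and 10375786 for the RIPs, IgG first. The IgG RIP stood apart from the other libraries: among the 15431 genes that averaged 1 CPM or more, 19.7% had no read in it, against 0.350% in each input and 0.402% in the LC3B RIP. Mesenchymal markers fitted the label in part. SPARC was at 1470 to 3104 TPM (transcript shares, which adjust for transcript length), VIM at 146 to 375 and THY1 at 133 to 210.0, whereas COL1A2 and NT5E stayed at or below 0.24. The leukocyte markers summed to 4.34 to 17.4 TPM and the endothelial ones to at most 1.60, whereas the neural ones summed to 38.4 to 74.9, most of it TUBB3 at 29.97 to 66.9. Among the epithelial markers KRT8 and KRT18 were abundant, at 868 to 2017 TPM, CLDN4 was at 26.7 to 81.3 and EPCAM at 9.62 to 18.2, while CDH1 did not pass 1.92 and ESRP1 0.12.

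Levels between genes are compared in deposited TPM. ITGB1, the beta subunit shared by most of these receptors, dominated the group, with 542 TPM in the IgG and 605 in the LC3B input, against 309.8 in the IgG and 276 in the LC3B RIP. It held 86.8% and 87.4% of the summed TPM of the 9 integrins in the inputs, and 65.6% and 61.5% in the RIPs, IgG first. ITGB5, the partner of alphaV in a vitronectin receptor, came next in all 4 libraries, at 42.0 and 38.0 TPM in the IgG and LC3B inputs and at 85.9 and 99.8 in the corresponding RIPs. ITGB3 was the lowest member in the inputs, at 0.54 and 1.07 TPM.

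FN1, ITGA5 and ITGAV formed a middle tier in the inputs. FN1 had 14.0 and 12.5 TPM in the IgG and LC3B inputs, ITGA5 had 12.5 and 16.8, and ITGAV had 11.3 and 11.2. The order of FN1 and ITGA5 was turned around between the inputs, so these neighbours were not separated. ITGA3 (8.11 and 10.2 TPM) and ITGA6 (5.84 and 6.94) followed in both inputs, and ITGA4 (1.24 and 1.98) and ITGA2 (1.01 and 1.27) were lower still. ITGB1 exceeded the sum of the 6 alpha subunits 13.6 times in the IgG and 12.5 times in the LC3B input, against 4.05 times in the IgG and 3.83 times in the LC3B RIP. Within that alpha sum ITGA5 held 31.2% and 34.7% in the inputs, 74.3% in the IgG RIP and 43.5% in the LC3B RIP.

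**Figure D1:**
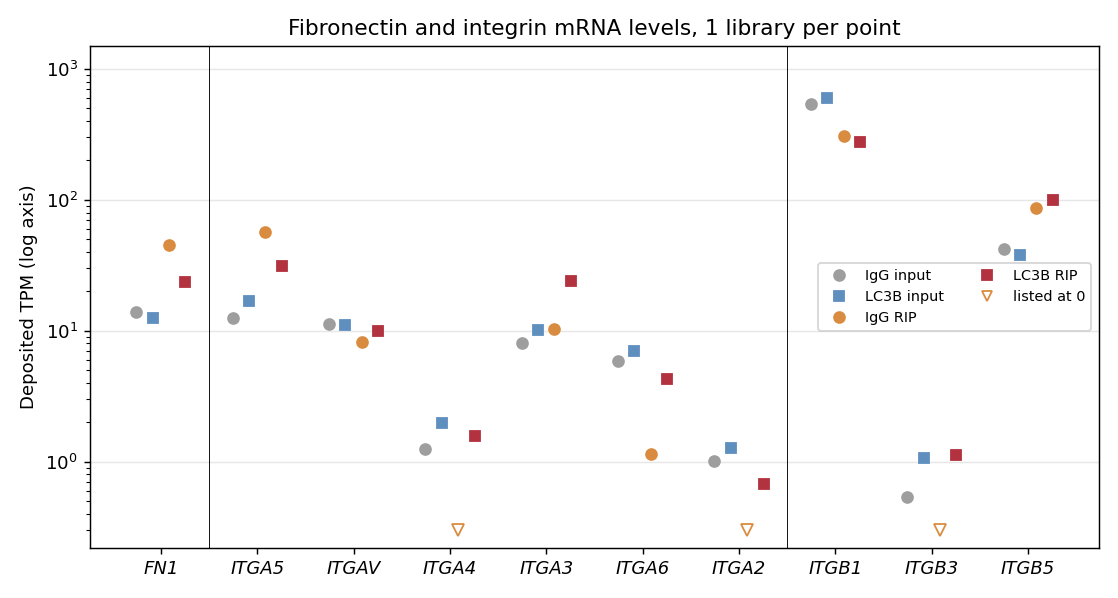
Deposited TPM (log axis) of FN1, the alpha subunits and the beta subunits, 1 point per library and no error bars because each group has 1 library. ITGB1 lies above all other members in each library, and the open triangles mark ITGA4, ITGA2 and ITGB3, listed at 0 in the IgG RIP.

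A gene was called higher where the lower bound of the 95% interval of its fold was at least 2, and lower where the upper bound was at most 0.5. Between the inputs, which had no antibody, 0 of the 10 members were called in either direction, against 0.136% of the 15431 genes called higher and 0.156% called lower. Folds of the LC3B input over the IgG input ran from 1.03 for ITGB5 to 1.503 for ITGA4 (1.06 to 2.15). All were above 1 on this scale, but ITGB5 was at 0.992 under TMM scaling, and in deposited TPM FN1 was at 0.894, ITGB5 at 0.905 and ITGAV at 0.986. The central 95% of this fold, the spread of single genes between libraries without antibody, was 0.505 to 2.14 for the 5586 genes with input levels of 1 to 10 CPM, ITGA4 among them. It was 0.767 to 1.42 for 7148 genes at 10 to 100 CPM and 0.868 to 1.16 for 2301 genes at 100 or more.

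The comparison of the RIPs asks which mRNAs were recovered with LC3B above the IgG background. FN1, the ligand (ENSG00000115414, chromosome 2, 215360440 to 215436073, minus strand, hg38), had 330 reads in the IgG and 367 in the LC3B input, against 512 in the IgG and 493 in the LC3B RIP. That is 39.3, 43.0, 52.1 and 47.5 CPM in the same order, so both RIPs lay above both inputs and the LC3B RIP lay between the inputs and IgG. FN1 stood at 0.912 (95% counting interval 0.804 to 1.03) in the LC3B over the IgG RIP, at 1.11 (0.964 to 1.27) over the LC3B input, and at 1.33 (1.15 to 1.53) in the IgG RIP over its input, with no call. The ratio of the last pair of folds, LC3B over IgG, was 0.833 (0.687 to 1.01). Among genes of like input level, 36.4% had a lower LC3B over IgG value than FN1 and 59.9% a lower value over the LC3B input.

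The deposited TPM gave another size for FN1. On that scale its level was 45.5 in the IgG RIP and 23.4 in the LC3B RIP, a fold of 0.515 against the 0.912 of the counts. The TPM fold was 1.87 over the LC3B input, against 1.11 in counts, and 3.25 for the IgG RIP over its input, against 1.33. Part of these gaps goes with the totals. With mitochondrial genes in the totals the count folds were 1.39 over the LC3B and 1.69 over the IgG input, and 0.921 between the RIPs. Dividing reads by TPM gave 23.6 reads per TPM unit of FN1 in the IgG and 29.3 in the LC3B input, against 11.2 in the IgG and 21.0 in the LC3B RIP. If the TPM were made from these reads, the quotient follows the transcript length assigned to the gene, up to a constant for each library. With that constant removed and the inputs as reference, FN1 lay at 0.458 in the IgG RIP, below all but 2.18% of 8432 genes with at least 50 reads in each library, and at 0.786 in the LC3B RIP, below all but 3.65%. It was 0.890 in the IgG and 1.12 in the LC3B input, above 3.25% and 96.7% of those genes, so FN1 differed more than most between the inputs too. Per TPM unit, FN1 thus had the fewest reads in the IgG RIP. FN1 has 27 annotated transcripts in the deposited table, and which of them were used is not given in the sources used here.

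ITGA3 was the other member with such a shift, at 0.507 in the IgG RIP (below all but 2.94% of the genes) and 0.934 with LC3B. The other 5 members with enough reads (ITGA5, ITGAV, ITGA6, ITGB1 and ITGB5) lay between 1.02 and 1.20 in the IgG RIP, where the median gene was at 1.07, and between 0.951 and 1.12 with LC3B. This quotient was examined after the values had been seen.

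**Figure D2:**
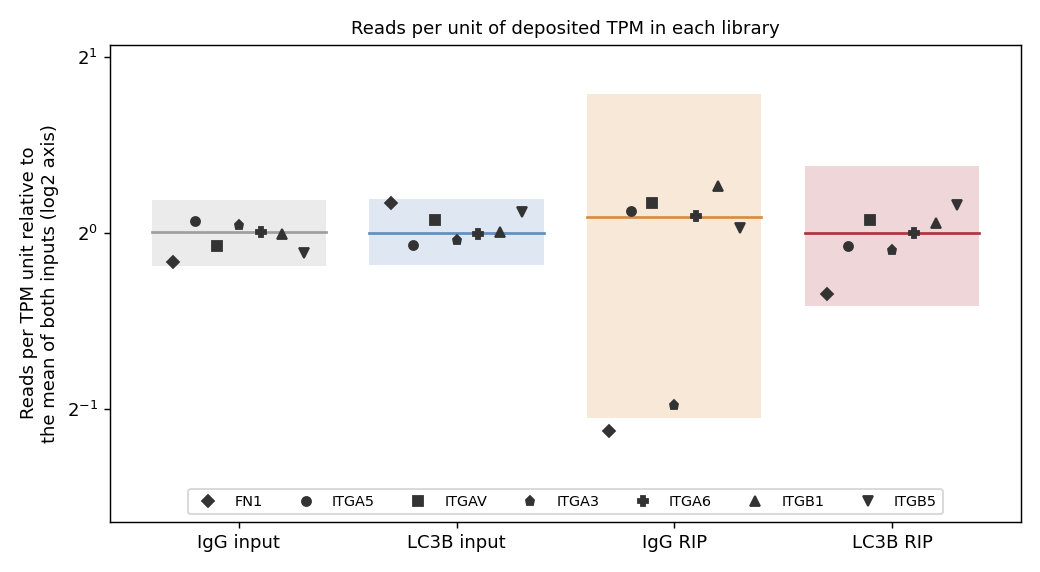
Reads per unit of deposited TPM, relative to the mean of both inputs (log2 axis), for the 7 members with at least 50 reads in every library; shaded boxes span the central 95% of 8432 genes and lines mark their medians. FN1 and ITGA3 lie near the lower edge of the box in the IgG RIP, at 0.458 and 0.507, and the other 5 members lie near the median.

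ITGA5 (ENSG00000161638, chromosome 12, 54395261 to 54419266, minus strand), the alpha subunit of the main fibronectin receptor, was highest with IgG. Its reads numbered 440 with the IgG and 531 with the LC3B input, 1935 in the IgG and 1012 in the LC3B RIP, or 52.4, 62.2, 197 and 97.53 CPM. The IgG RIP was the highest library and both RIPs exceeded both inputs. ITGA5 was called higher in the IgG RIP over its input, at 3.76 (3.39 to 4.18), above 98.6% of genes of like input level, and was uncalled over the LC3B input at 1.57 (1.41 to 1.75). Between the RIPs it stood at 0.495 (0.458 to 0.535), uncalled, and the input-corrected ratio was called lower, at 0.417 (0.360 to 0.484). Under median-of-ratios scaling the fold between the RIPs was called lower as well.

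ITGAV (chromosome 2, 186590056 to 186680901), the alpha subunit of the vitronectin receptors, was called in no comparison. It was at 86.3 CPM in the IgG and 91.5 in the LC3B input, against 58.3 in the IgG and 69.4 in the LC3B RIP, the inputs being the higher pair. Its fold was 0.758 (0.684 to 0.840) over the LC3B input, 0.676 (0.605 to 0.755) over the IgG input and 1.19 (1.06 to 1.33) between the RIPs, none of them called.

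ITGB1 (ENSG00000150093, chromosome 10, 32900318 to 33005792, minus strand) was the only member called lower than its input with LC3B. It had 15243 reads in the IgG and 16893 in the LC3B input, against 9754 in the IgG and 8183 in the LC3B RIP. Both RIPs lay below both inputs, at 993 and 789 CPM for IgG and LC3B against 1814 and 1978. The fold was 0.399 (0.388 to 0.410) over the LC3B input, lower than for 94.4% of genes of at least 100 CPM, and 0.547 (0.534 to 0.562) over the IgG input, uncalled. In all, 4.48% of genes were called lower over the LC3B input. The LC3B call was lost with totals that include mitochondrial genes, where the fold was 0.499. Between the RIPs ITGB1 stood at 0.794 (0.771 to 0.818), uncalled.

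ITGB5 (ENSG00000082781, chromosome 3, 124761948 to 124901418, minus strand) went the other way from ITGB1. It had 922 reads in the IgG and 968 in the LC3B input, against 1930 in the IgG and 2683 in the LC3B RIP, which is 109.7, 113, 196 and 259 CPM, so the RIPs were the higher pair. Of the 10 members it alone was called higher over the LC3B input, at 2.28 (2.12 to 2.46), against 1.4% of all genes called higher there (216 higher and 691 lower, or 880 and 250 with mitochondrial genes in the totals), and it lay above 99.5% of genes of at least 100 CPM. With those totals ITGA3 was called higher as well. The IgG RIP was above its input too, at 1.79 (1.65 to 1.94), uncalled, and above 92.0% of genes of that level. It was called there with mitochondrial genes in the totals, at 2.28. The fold between the RIPs was 1.32 (1.24 to 1.40) and the input-corrected ratio 1.27 (1.14 to 1.42), both uncalled.

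ITGB3 (chromosome 17, 47253846 to 47313735), which pairs with alphaV, ITGA4 (chromosome 2, 181457202 to 181538940) and ITGA2 (chromosome 5, 52989340 to 53094779) were the rarest members and shared a pattern. ITGB3 had 32 reads in the IgG and 40 in the LC3B input, against 0 in the IgG and 34 in the LC3B RIP. ITGA4 had 55, 84, 0 and 40 reads and ITGA2 had 70, 75, 0 and 45 in the same order. All 3 thus had no read in the IgG RIP, where 3 reads correspond to 0.305 CPM. Of 5586 genes with an input level of 1 to 10 CPM, 41.2% had none there either, against 0.412% in the LC3B RIP. ITGA2 was at least 27.3-fold lower in the IgG RIP against its input, ITGA4 at least 21.4-fold and ITGB3 at least 12.5-fold. Over the LC3B input the folds were 0.494 (0.334 to 0.724) for ITGA2, 0.392 (0.262 to 0.578) for ITGA4 and 0.700 (0.430 to 1.13) for ITGB3, none called. In deposited TPM these were 0.535, 0.788 and 1.05, so the ITGB3 value lay on the other side of 1. The median log2 fold of all genes over the LC3B input was 0.27 in TPM, with genes at 0 TPM left out, and 0.02 in counts.

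ITGA6 (ENSG00000091409, chromosome 2, 172427354 to 172506459, plus strand), a laminin receptor subunit, had a partial form of this pattern. It had 334 reads in the IgG and 389 in the LC3B input, against 65 in the IgG and 247 in the LC3B RIP. The IgG RIP was the lowest library at 6.62 CPM, against 23.8 with LC3B and 39.7 and 45.5 in the inputs, IgG first. ITGA6 was called lower in the IgG RIP over its input, at 0.166 (0.126 to 0.218), and higher in the LC3B over the IgG RIP, at 3.60 (2.73 to 4.80), while over the LC3B input it stood at 0.523 (0.444 to 0.615), uncalled.

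ITGA3 (ENSG00000005884, chromosome 17, 50055968 to 50090481, plus strand), the alpha subunit of another laminin receptor, had 277 reads in the IgG and 323 in the LC3B input, against 161 in the IgG and 756 in the LC3B RIP. It was the only member with the LC3B RIP above both inputs and the IgG RIP below both, at 72.9 and 16.4 CPM against 32.96 and 37.8. ITGA3 was called higher in the LC3B over the IgG RIP, at 4.45 (3.75 to 5.30), and by the input-corrected ratio, at 3.87 (3.06 to 4.89). Of genes of like input level, 20.6% lay above ITGA3 between the RIPs and 21.8% by the input-corrected ratio. Over the LC3B input it stood at 1.93 (1.69 to 2.20), above 94.9% of genes of like level, and over the IgG input at 0.497 (0.407 to 0.606), both uncalled. With mitochondrial genes in the totals it was called higher over the LC3B input, at 2.41, and its TPM fold there was 2.375. In deposited TPM the IgG RIP was at 10.3, not below the inputs at 8.11 and 10.2, and the fold between the RIPs was 2.34, so the low IgG value of ITGA3 holds in reads and not in TPM. The median log2 fold of all genes over the IgG input also differed, at -0.45 in reads and 0.26 in TPM, with genes at 0 TPM left out.

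Across the group, 5 of 10 members (ITGA2, ITGA3, ITGA4, ITGA6 and ITGB3) were called higher and 0 lower for LC3B over IgG RIP, where 33.8% of all genes were called higher and 9.45% lower. Shares called higher depended on input level, at 51.7% of genes at 1 to 10 CPM, 29.1% at 10 to 100 and 8.56% at 100 or more. The members followed the same order, with 3 of 3 called at 1 to 10 CPM, 2 of 5 at 10 to 100 (FN1, ITGA5, ITGAV, ITGA3 and ITGA6) and 0 of 2 at 100 or more (ITGB1 and ITGB5). In the IgG RIP over its input, which shares the IgG RIP library with that comparison, 1 member was called higher (ITGA5) and 4 lower (ITGA2, ITGA4, ITGA6 and ITGB3), against 9.69% and 33.6% of all genes. Of the 5 members above IgG, 0 were called higher over the LC3B input, or 1 (ITGA3) with mitochondrial genes in the totals. Over all genes 1.4% were called higher there, or 5.83% with those totals. The input-corrected ratio called the same 5 members higher and ITGA5 lower, against 29.1% and 7.58% of all genes. The members' median log2 ratio was 1.08 between the RIPs, -0.43 over the LC3B input and -0.93 over the IgG input, where all genes had 0.41, 0.01 and -0.43.

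**Figure D3:**
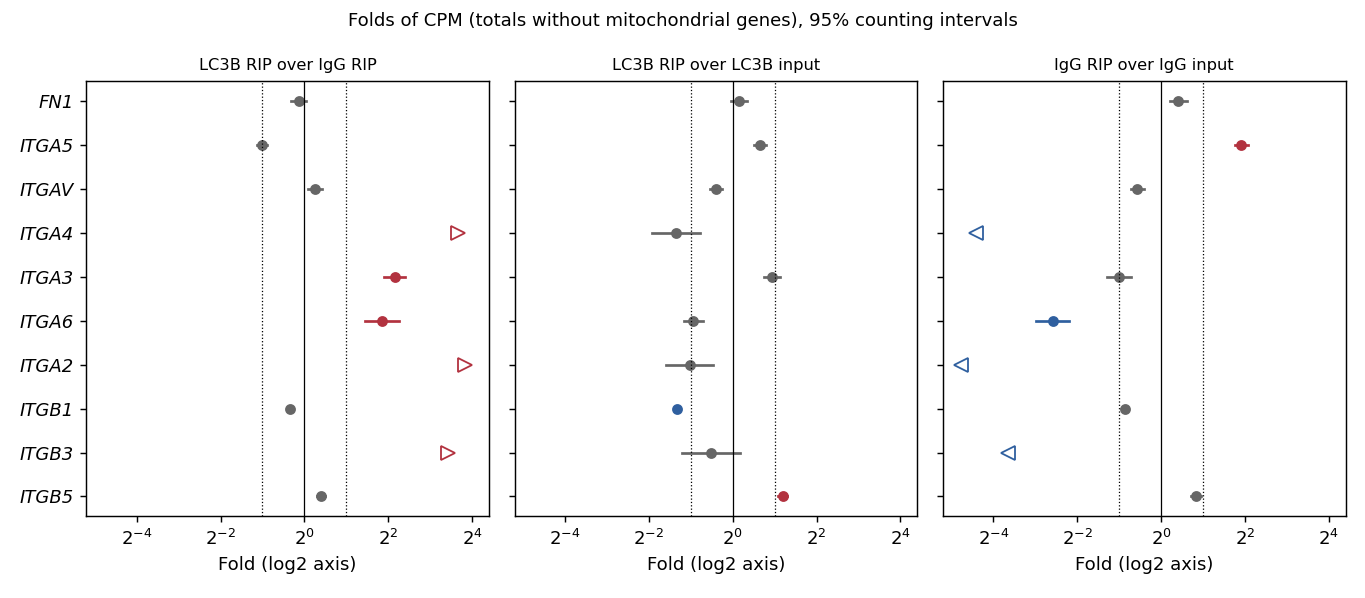
Folds of CPM for the 10 members in 3 comparisons (log2 axis), with 95% counting intervals; red is called higher, blue called lower, grey uncalled, open triangles are bounds computed with 3 reads where a library had 0, and dotted lines mark 2 and 0.5. ITGB5 and ITGB1 are the called members over the LC3B input, at 2.28 and 0.399, and FN1 lies near 1 in the first and middle panels.

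**Figure D4:**
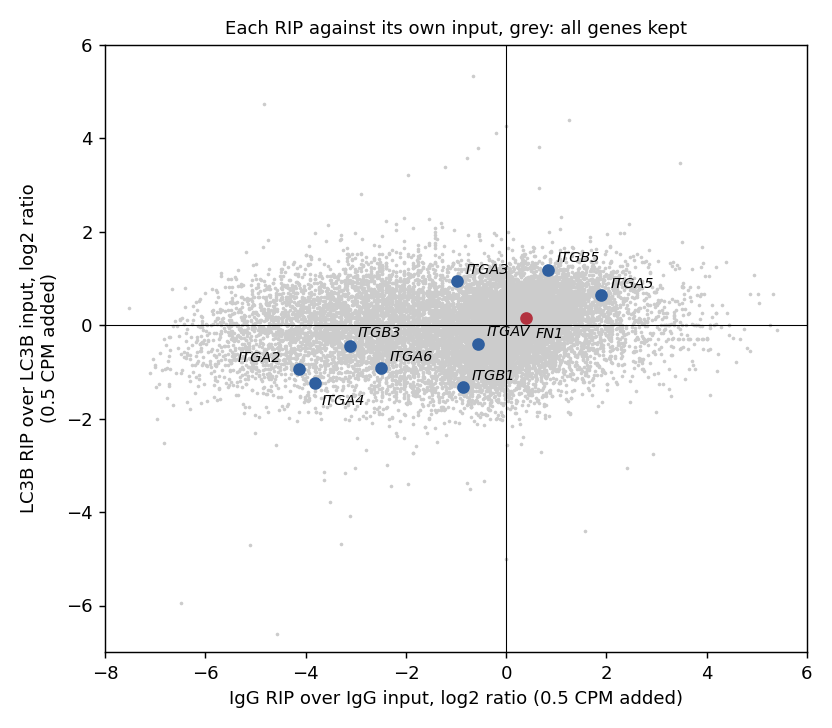
Log2 ratio of the LC3B RIP over its input against that of the IgG RIP over its input, with 0.5 CPM added, for the members (FN1 in red, integrins in blue) and 15431 genes in grey. The members ran from -4.14 for ITGA2 to 1.90 for ITGA5 along the IgG axis. Along the LC3B axis they ran from -1.33 for ITGB1 to 1.19 for ITGB5. The wider IgG spread is not particular to the members. With the extremes at each end left out, genes at 10 to 100 CPM in the inputs ran from -5.68 to 1.69 with IgG. With LC3B these genes ran from -1.47 to 1.09. ITGA2 had 0 reads in the IgG RIP, so its -4.14 depends on the added 0.5 CPM.

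The genes whose profiles over the 4 libraries lay closest to FN1, by Euclidean distance of centred log2 levels among 9362 candidates, were GSG1 (distance 0.02), MRPS17 (0.03), LAPTM4B (0.03), FUCA2 (0.03) and ABHD12 (0.04). The nearest member was ITGAV at 0.80, followed by ITGB5 at 0.83 and ITGA5 at 1.18, each further away than the 5 genes named. For ITGB1 the closest were ESF1 (0.08), IGF2 (0.09), EXPH5 (0.09), MEMO1 (0.10) and C1orf52 (0.12), and its distance to ITGA5, its partner in the fibronectin receptor, was 2.42. These distances rest on 4 libraries.

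Of 17 other integrin subunits, 6 passed the minimum of 1 CPM. Within them ITGA1 (a collagen receptor subunit), ITGA7 (a laminin receptor subunit) and ITGB2 (the leukocyte beta subunit) were called higher in the LC3B over the IgG RIP and lower in the IgG RIP over its input, and 0 were called over the LC3B input. These 3 also had 0 reads in the IgG RIP, with 39 reads of ITGA1 in the IgG and 52 in the LC3B input, against 85 in the LC3B RIP. All 3 lay at 1 to 10 CPM in the inputs, where 41.2% of genes had no read in the IgG RIP. In that band 51.7% of genes were called higher between the RIPs and 50% lower over the IgG input. Over the LC3B input 1.4% of all genes were called higher and 4.48% lower. ITGAE, the alpha subunit best known from T cells, was the highest of the 6 at 158 TPM in each input, 225 in the IgG RIP and 344 in the LC3B RIP, with an uncalled fold of 1.84 (1.69 to 2.005) over the LC3B input. In the IgG input its 158 TPM went with 786 reads, whereas ITGB8 had 6.37 TPM with 328 reads and ITGA5 12.5 TPM with 440. The lead of ITGAE was thus far smaller in reads than in TPM, and the transcript lengths behind the TPM were not given. ITGB8, a partner of alphaV, stood at 1.05 (0.920 to 1.21) between the RIPs, though its TPM was 18.1 with IgG and 12.6 with LC3B.

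Genes for the adaptors and activators that link integrins to actin had a median near that of all genes. Of 25 kept, 9 were called higher and 1 lower for LC3B over IgG RIP, 0 were called over the LC3B input, and 4 were higher and 8 lower in the IgG RIP over its input. The shares over all genes were 33.8% and 9.45% between the RIPs, 1.4% and 4.48% over the LC3B input, and 9.69% and 33.6% with IgG over input. The median log2 ratio of the 25 between the RIPs was 0.41, as for all genes. PTK2, the focal adhesion kinase, had 1201 reads in the IgG and 1218 in the LC3B input, 287 with IgG and 965 with LC3B, a fold of 3.18 (2.79 to 3.64) between the RIPs and 0.652 (0.599 to 0.710) over the LC3B input. In TPM the RIPs were closer, at 51.1 with IgG and 59.7 with LC3B. FLNA, the actin crosslinker filamin A, had its highest level with IgG, as ITGA5 did, with 627 reads in the IgG and 882 in the LC3B input, 3242 in the IgG and 1787 in the LC3B RIP. It was called higher over the IgG input at 4.42 (4.06 to 4.83) and was uncalled over the LC3B input at 1.67 (1.54 to 1.81). Its TPM was 326 in the IgG RIP, against 94.9 with LC3B and 35.3 and 48.8 in the inputs. ZYX (zyxin) was called lower over the IgG input at 0.420 (0.386 to 0.457), and SHARPIN, an inhibitor of integrin activation, higher at 2.41 (2.22 to 2.62). ITGB1BP1, which binds the beta1 tail, stood at 0.864 (0.803 to 0.930) over the LC3B input.

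Among other integrin ligands, 19 of 25 genes were kept, of which 8 were called higher and 1 lower for LC3B over IgG RIP and 1 higher and 0 lower over the LC3B input. Over all genes 33.8% were higher and 9.45% lower between the RIPs, and 1.4% higher and 4.48% lower over the LC3B input. EDIL3, a secreted ligand of alphaV integrins, had 1741 reads in the IgG and 1819 in the LC3B input, 291 with IgG and 1969 with LC3B, so that the IgG RIP was the low library. Its fold was 6.41 (5.66 to 7.27) between the RIPs but 0.891 (0.836 to 0.9504) over the LC3B input. COL1A1, a chain of type I collagen, was the ligand called higher over the LC3B input, at 2.21 (2.07 to 2.35), and stood at 1.83 (1.70 to 1.96) over the IgG input. The matricellular ligand CCN2 was called higher between the RIPs at 2.13 (2.03 to 2.24), while CCN1, of the same family, stood at 1.08 (1.04 to 1.11). LAMB2, a laminin chain, was called higher over the IgG input at 2.81 (2.32 to 3.42).

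Partners of fibronectin in the matrix and at the cell surface gave 8 of 16 kept genes higher and 0 lower between the RIPs, and 3 higher and 0 lower over the LC3B input (SDC1, SDC2 and MMP2). All genes gave 33.8% higher and 9.45% lower between the RIPs, and 1.4% higher and 4.48% lower over the LC3B input. With mitochondrial genes in the totals the shares over the LC3B input were 5.83% and 1.66%, but the partners were not recounted with those totals. SDC2, a heparan sulfate proteoglycan of the surface, had 1212 reads in the IgG and 1378 in the LC3B input, 846 with IgG and 3858 with LC3B. In reads the LC3B RIP was its highest library and IgG its lowest, whereas in TPM the IgG RIP, at 106, was above the IgG input at 97.1. The folds were 4.32 (4.01 to 4.66) over IgG and 2.31 (2.17 to 2.45) over the LC3B input, both called. CD151, a tetraspanin that binds laminin-receptor integrins, was called over IgG at 2.20 (2.05 to 2.36) and stood at 2.08 (1.94 to 2.24) over the LC3B input. PLAUR, the urokinase receptor, was called higher over the IgG input at 2.86 (2.69 to 3.05). The list's median log2 ratio over the LC3B input was 0.61, against 0.01 over all genes; counts and medians here describe 4 libraries and are no test.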

How the data were processed

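RNA from 4 U2OS libraries (an IgG and an LC3B RIP and an input for each, 1 library per group, assigned by sample title) was analysed from the authors' deposited tables. The members, lists and rules were chosen with earlier results of these data known. The file headers name the deposited values as read counts, unnormalized, and as TPM, which the authors computed library by library; commas within the counts were removed and left whole numbers. The submitters' processing notes list cutadapt 2.8, STAR 2.7.1a and hg38. Counter, annotation release, strand setting and transcript lengths were not given in the sources used here, so reads shared by overlapping genes cannot be told apart.

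Counts were scaled to CPM by library totals without mitochondrial genes; 15431 genes averaging 1 CPM or more were kept, including all 10 members. Folds carry exact conditional binomial (Clopper-Pearson) 95% intervals, computed with scipy 1.17.1. With 0 reads, 3 reads were used and the fold is a bound. The input-corrected ratio added 0.5 to each count, with a log-normal interval and, against 0 reads, the same 3-read bound. Log2 ratios added 0.5 CPM. Percentiles compare a gene with genes in its band of mean input level (1 to 10, 10 to 100, at least 100 CPM).

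Named genes were the members and, from 9 fixed lists, the 2 highest in mean TPM and the 4 most abundant called genes; of the marker lists only part is printed. The 5 most alike genes needed 10 CPM. SDC1, MMP2, THY1, NT5E, COL1A2 and ESRP1 were named after their values were seen. Alternatives were totals with mitochondrial genes, TMM and median-of-ratios scaling (from their published definitions in purpose-written code), no filter or 5 CPM, bounds of 4 and 0.25, folds without interval, deposited TPM, and other added counts (0.1 and 1). The functions were tested on simulated counts.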

Additional observations from a re-analysis of the deposited data

Results flagged for a closer look

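ITGA3 had opposite directions over the inputs, with a fold of 1.93 in the LC3B RIP over the LC3B input and of 0.497 in the IgG RIP over the IgG input, and both 95% counting intervals clear of 1. With 1 library per group the difference was not tested across samples. Of the 15431 genes kept, 18.9% showed such opposite folds, as did 20.6% of those at 10 to 100 CPM in the inputs. In deposited TPM the ITGA3 fold over the IgG input was 1.27, above 1, so the opposition was absent on that scale. The median log2 fold of all genes over the IgG input was 0.26 in TPM, with genes at 0 TPM left out, against -0.45 in counts.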

How the results depend on the processing

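No paired analysis was possible because each group holds 1 library and the labels carry no replicate numbers; leaving out a library was not possible for the same reason. Of the counts of called members recomputed under alternatives, 66 stayed within 1.5 times the value reported and 18 did not. Dropping the filter could not change a count, because all 10 members pass it, and counts between the inputs stayed at 0 throughout. The 66 thus includes counts that say little about how stable the calls are. With mitochondrial reads in the totals, 2 members were called higher over the LC3B input (ITGB5 and ITGA3) and 0 lower. All genes gave 5.83% and 1.66% there. Over the IgG input 2 were higher (ITGA5 and ITGB5), against 15.6% of all genes. Median-of-ratios scaling called 1 member lower between the RIPs, against 11.3% of all genes. Bounds of 4 and 0.25 left 3 members higher between the RIPs, against 24.0% of all genes. With these bounds 0 members were higher and 0 lower with LC3B over input (0.0842% and 0.227% of all genes). With IgG over input 0 were higher (2.37%), and by the input-corrected ratio 1 was higher and 0 lower (17.7% and 1.67%). Folds without interval gave 1 member lower between the RIPs and 3 lower with LC3B over input, against 14.3% and 11.0% of all genes. Deposited TPM, where the 3 members listed at 0 with IgG give no fold, called 2 members higher between the RIPs (19.2% of all genes). With LC3B over input it called 2 higher (15.7%), and by the input-corrected ratio 1 higher (18.5%). With IgG over input it called 3 higher and 1 lower (21.1% and 15.4%). With 0.1 added to each count the input-corrected ratio called 2 members higher. TMM scaling kept all counts of called members. No called member changed direction under these alternatives. ITGB3, ITGA4 and ITGA2, with at most 84 reads in any library, are limited most by depth.

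Over all genes, mitochondrial genes in the totals moved the LC3B over input calls from 216 higher and 691 lower to 880 and 250, and the higher calls of IgG over input from 1495 to 2355. The median log2 fold of all genes, computed without added CPM, moved from 0.02 to 0.34 with LC3B and from -0.45 to -0.07 with IgG. Between the RIPs the 5219 higher and 1459 lower genes became 2923 higher with a filter of 5 CPM, 377 lower with the wider bounds, 2213 lower without interval, and 2956 and 2255 in TPM. With LC3B over input the wider bounds gave 13 and 35, folds without interval 1213 and 1691, and TPM 2428 and 1098. With IgG over input, where 5185 genes were lower, the wider bounds gave 366 higher, folds without interval 2304 higher, TPM 3251 and 2383, and the filter of 5 CPM 2974 lower. Between the inputs, 21 higher and 24 lower became 61 and 53 without a filter, 1 and 6 with 5 CPM, 6 and 9 with the wider bounds, 452 and 315 without interval, and 717 and 396 in TPM. The 4491 higher and 1169 lower input-corrected ratios became 2757 higher with 5 CPM, 2729 and 257 with the wider bounds, 2337 lower without interval, and 2861 and 2495 in TPM.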

Other observations

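Several members overlap other annotated features on the opposite strand. AC078883.1, a long non-coding RNA that overlaps ITGA6, had 16 and 9 reads in the IgG and LC3B inputs, 109 in the IgG RIP and 10 in the LC3B RIP, so that in the IgG RIP it held more reads than the 65 of ITGA6 itself. CERKL, which overlaps ITGA4, had 43 and 31 reads in the IgG and LC3B inputs, 0 in the IgG RIP and 17 in the LC3B RIP, the same absence with IgG as ITGA4. ITGB1-DT, which overlaps the start of ITGB1, had 65, 64, 50 and 78 reads in the IgG input, the LC3B input, the IgG RIP and the LC3B RIP. ENO1P3, a processed pseudogene on the strand of ITGB5, had 6, 14, 0 and 7 in that order. Without a stated strand setting, reads of these features and of the members cannot be told apart.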
